A study of Homo sapiens with 11 samples.

Results

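A set of 8 genes expressed by airway epithelium, out of the 23608 gene symbols analysed, were followed across 11 RNA-seq libraries of A549 cells. They were SLPI, LCN2, DEFB1, CEACAM1, CEACAM5, CEACAM6, SCNN1A and NTS, and were chosen as secreted and surface genes whose FPKM was higher after 2 weeks than after 48 hours in the DMSO vehicle. Their levels in the DMSO libraries, and in the CSC libraries set against them, are therefore given as a description with no test. A549 is an established human lung adenocarcinoma line, and all groups share that 1 line. Cells were given either CSC, a condensate of cigarette smoke, or its vehicle DMSO. The labels write the CSC dose as 20 µM, although a mixture has no molar concentration. There were 3 libraries of CSC for 2 weeks, 3 of DMSO for 2 weeks, 3 of CSC for 48 hours and 2 of DMSO for 48 hours, the last being replicates 2 and 3. Nothing in the labels ties replicates to separate cultures, so errors and p-values measure the spread between these libraries, which may be technical.

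The lining of the airway is protected by secreted proteins and by the surface of its epithelial cells. SLPI is a protease inhibitor that restrains neutrophil elastase, LCN2 (lipocalin 2) binds bacterial siderophores and so withholds iron, and DEFB1 is a defensin that epithelia make constitutively. CEACAM1, CEACAM5 and CEACAM6 are adhesion molecules of the immunoglobulin family to which several airway bacteria attach, and SCNN1A is the alpha subunit of the epithelial sodium channel that absorbs fluid from the airway surface. NTS encodes the precursor of neurotensin, a signalling peptide of gut and nerve that some lung tumours produce. It is not a defence protein. The name of airway defence genes fits SLPI, LCN2 and DEFB1 most directly, the CEACAM genes and SCNN1A less so, and NTS least.

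Values are FPKM, fragments scaled to transcript length and to the fragments of the library, which allow levels of different genes to be set side by side. Summed FPKM lay between 338507 and 484053 per library, and 11742 to 12051 genes reached an FPKM of 1. The depth in reads is unknown, but by the width of the deposited bounds CSC 2 weeks replicate 2 was the deepest library, at 2.83 times the shallowest, and the next deepest stood at 1.54 times. By this measure every 2-week library, at 1.19 times or more, was deeper than every 48-hour library, at 1.16 times or less. Summed FPKM was at least 363873 in the 2-week libraries and at most 360969 in those of 48 hours. Depth and sum thus went with time, and their part in the changes with time was not tested. The epithelial markers EPCAM, KRT8, KRT18, KRT19 and CDH1 all reached an FPKM of 1. Their summed FPKM was 2096 to 2769 in CSC and 3059 to 3554 in DMSO at 2 weeks. At 48 hours it was 1225 to 1594 in CSC and 1922 to 2250 in DMSO. The sum thus moved with time and treatment as several members did, and its part in those results was not tested. It came almost wholly from KRT8 and KRT18, which averaged 1644 and 1669 FPKM in DMSO at 2 weeks. CDH1 means were also higher at 2 weeks and lower under CSC. KRT19 and EPCAM moved otherwise in part. KRT19 averaged 29.6 FPKM in CSC and 27.4 in DMSO at 2 weeks, and 37.8 and 27.3 at 48 hours. EPCAM averaged 4.68 in CSC and 6.38 in DMSO at 2 weeks, and 4.69 and 3.24 at 48 hours. Markers of airway basal cells (TP63, KRT5, KRT14 and NGFR) summed to 2.44 to 3.58 FPKM in CSC and 5.65 to 6.50 FPKM in DMSO at 2 weeks, and to 1.35 to 3.64 FPKM in CSC and 2.22 to 3.46 FPKM in DMSO at 48 hours. That sum had the same order as several members. It came almost wholly from TP63, the 1 of 4 that reached an FPKM of 1. Fibroblast markers summed to 7.14 to 9.4 FPKM in CSC and 10.8 to 11.7 FPKM in DMSO at 2 weeks, and to 4.03 to 5.20 FPKM in CSC and 4.03 to 6.48 FPKM in DMSO at 48 hours, with 1 of 4 (COL1A1) reaching an FPKM of 1 and the defining marker DCN at 0 in every library. The club cell markers SCGB1A1 and SCGB3A2 were listed at 0 in all 11 libraries, while the goblet marker MUC5B lay between 0.317 and 1.59 FPKM across them. The other goblet marker on the list, MUC5AC, was not among the genes analysed, so its level is unknown. Ciliated markers summed to 1.83 to 2.58 FPKM in CSC and 1.73 to 3.71 in DMSO at 2 weeks. At 48 hours they summed to 0.981 to 3.23 FPKM in CSC and 1.40 to 4.24 in DMSO. Alveolar type II markers summed to 10.5 to 12.7 FPKM in CSC and 10.9 to 11.9 in DMSO at 2 weeks. At 48 hours they summed to 9.18 to 10.6 FPKM in CSC and 9.23 to 9.72 in DMSO. Of these only TPPP3 and ABCA3 reached an FPKM of 1. Endothelial markers summed to at most 0.0491 FPKM. Leukocyte markers summed to 3.28 to 4.45 FPKM in CSC and 2.37 to 2.70 FPKM in DMSO at 2 weeks, and to 1.30 to 2.29 FPKM in CSC and 2.30 to 2.63 FPKM in DMSO at 48 hours. Of these 5 markers 2 (CD14 and LYZ) reached an FPKM of 1, and the defining marker PTPRC reached at most 0.0282 FPKM. The part of these sums in the members' results was not tested. In such bulk samples fewer cells of a type and less RNA per cell cannot be told apart.

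All 8 members passed the filter for testing, which asks for 2 or more libraries with an FPKM of 1 or more, but DEFB1 and CEACAM5 passed it through DMSO at 2 weeks alone. After 2 weeks, 7 of the 8 had DMSO libraries that all lay above those of 48 hours, where 28.8% of the 12506 tested genes did so. This is the pattern for which they were chosen. CEACAM1 did not show it. Under CSC at 2 weeks, 6 of the 8 lay below every DMSO library of that time, against 9.84% of tested genes. These comparisons share the DMSO libraries of 2 weeks, in which the members were chosen to be high.

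**Figure D1:**
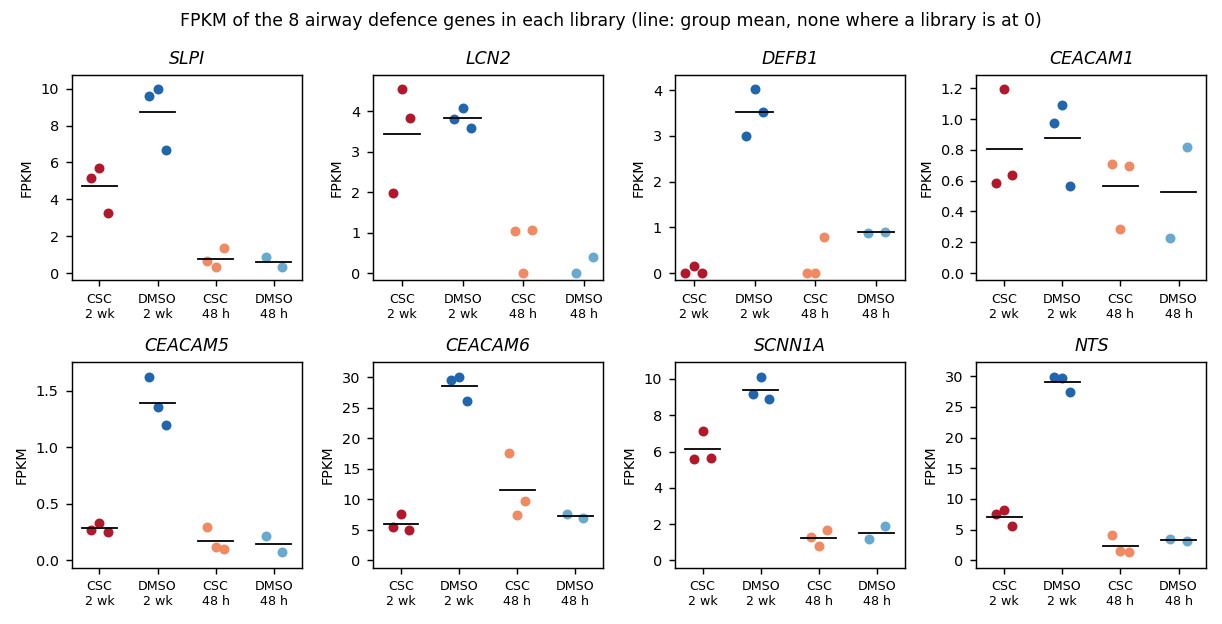
FPKM of each of the 8 genes (vertical axes, linear, 1 scale per gene) in the 4 groups, with a point per library and a line at the group mean where no library was at 0. DMSO libraries of 2 weeks stand highest for DEFB1, CEACAM5, CEACAM6, SCNN1A, NTS and SLPI, while CSC and DMSO libraries of 2 weeks overlap for LCN2 and CEACAM1.

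Among the secreted proteins, SLPI (chromosome 20, positions 43880879 to 43883206, hg19) stood at 5.17, 5.67 and 3.26 FPKM in CSC and at 9.62, 9.97 and 6.70 FPKM in DMSO after 2 weeks. At 48 hours it stood at 0.626, 0.307 and 1.36 FPKM in CSC and at 0.896 and 0.307 FPKM in DMSO. All 2-week libraries lay above all 48-hour ones, and the CSC libraries lay below the DMSO libraries at 2 weeks but overlapped them at 48 hours. The difference of log2(FPKM + 0.5) between 2 weeks and 48 hours was 3.11 ± 0.34 (SE) in DMSO, and that between CSC and DMSO at 2 weeks was -0.85 ± 0.30. The mean under CSC at 2 weeks was 4.70 ± 1.28 FPKM (SD, n = 3), which is 53.6% of the 8.76 ± 1.80 FPKM (SD, n = 3) in DMSO.

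LCN2 (chromosome 9, positions 130911732 to 130915734) gave 1.97, 4.55 and 3.84 FPKM in CSC and 3.8, 4.08 and 3.59 FPKM in DMSO after 2 weeks. After 48 hours it gave 1.03, 0 and 1.07 FPKM in CSC and 0 and 0.402 FPKM in DMSO, with no value marked as a failed estimate. Time thus separated the libraries under both treatments, whereas CSC and DMSO overlapped at 2 weeks, with 2 CSC libraries inside or above the DMSO range and replicate 1 below it. The log2 difference between 2 weeks and 48 hours in DMSO was 2.69 ± 0.45 (SE), and that between CSC and DMSO at 2 weeks was -0.19 ± 0.40. Without CSC 2 weeks replicate 1 that treatment difference for LCN2 turned to 0.12.

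DEFB1 was listed at 0, 0.153 and 0 FPKM in CSC and stood at 3.01, 4.02 and 3.52 FPKM in DMSO after 2 weeks. At 48 hours it was listed at 0, 0 and 0.792 FPKM in CSC and at 0.884 and 0.901 FPKM in DMSO. It was thus lower under CSC than under DMSO in every library at both times, and was the single member whose groups did not overlap at 48 hours, where 11.8% of tested genes lay lower in that way. The CSC library with the highest level at 2 weeks reached 4.36% of the DMSO mean of 3.52 ± 0.51 FPKM (SD, n = 3). The log2 difference between CSC and DMSO was -2.87 ± 0.32 (SE) at 2 weeks and -1.02 ± 0.36 at 48 hours, and that between the times in DMSO was 1.52 ± 0.36. The 2-week value depends on the pseudocount, being -4.72 at a pseudocount of 0.1. These are small levels: the deposited bounds of the 3.01 FPKM in DMSO 2 weeks replicate 1 ran between 0.792 and 5.01.

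The CEACAM genes lie in 1 cluster on chromosome 19, with CEACAM5 (positions 42212530 to 42234437) and CEACAM6 (positions 42259398 to 42276113) 24960 bases apart and CEACAM1 (positions 43011458 to 43032661) 735344 bases beyond. Their coding sequences are closely related, so the sharing of reads between them is uncertain. RefSeq promoters (build GRCh38.p14, 250 bases before to 50 after the start) were found for 5 of the 8 members, CEACAM1, CEACAM5, CEACAM6, LCN2 and NTS. Those of the CEACAM genes are printed because at 2 weeks the CSC libraries lay below the DMSO ones for CEACAM5 and CEACAM6 but not for CEACAM1. Each is given on its own strand, 5′ to 3′, with the E-box letters CACGTG in capitals. They are chr19:41708376-41708675 (plus strand), chr19:41755280-41755579 (plus strand) and chr19:42528432-42528731 (minus strand).
CEACAM5: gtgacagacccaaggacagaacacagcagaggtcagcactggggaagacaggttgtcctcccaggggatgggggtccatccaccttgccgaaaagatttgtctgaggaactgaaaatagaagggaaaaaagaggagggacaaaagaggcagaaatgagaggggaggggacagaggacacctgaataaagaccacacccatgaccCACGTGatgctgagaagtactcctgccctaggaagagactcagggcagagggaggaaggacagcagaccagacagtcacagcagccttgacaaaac
CEACAM6: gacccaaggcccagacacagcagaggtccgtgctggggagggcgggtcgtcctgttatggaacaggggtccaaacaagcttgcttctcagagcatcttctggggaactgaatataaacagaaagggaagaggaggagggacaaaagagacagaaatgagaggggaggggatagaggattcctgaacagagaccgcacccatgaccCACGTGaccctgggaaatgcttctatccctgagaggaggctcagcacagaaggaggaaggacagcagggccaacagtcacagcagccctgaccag
CEACAM1: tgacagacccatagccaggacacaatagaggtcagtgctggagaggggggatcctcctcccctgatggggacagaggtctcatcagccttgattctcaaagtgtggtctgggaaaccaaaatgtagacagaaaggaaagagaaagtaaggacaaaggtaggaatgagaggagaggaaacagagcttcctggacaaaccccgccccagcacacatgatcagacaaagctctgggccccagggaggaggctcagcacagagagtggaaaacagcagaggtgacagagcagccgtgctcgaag

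In a global alignment the promoters of CEACAM5 and CEACAM6 were identical at 74.7% of columns, those of CEACAM1 and CEACAM6 at 68.2% and those of CEACAM1 and CEACAM5 at 64.9%. The E-box began 46 bases before the start of CEACAM5 and 45 before that of CEACAM6 and was not among the letters of the CEACAM1 window, while 7.26% of 35116 promoters held it. It was picked for the printed set after the sequences were seen. On both strands, the core of the element bound by the aryl hydrocarbon receptor, GCGTG, was in none of the 5 promoters and in 36.5% of all. The AP-1 letters TGANTCA were in that of LCN2 alone (7.71% of all), and the cyclic AMP element TGACGTCA was in none (1.85% of all). Of the other motifs among the 8 searched, the antioxidant response core TGACNNNGC was in that of CEACAM1 (13.3% of all), the C/EBP letters TTGCNNAA were in those of LCN2 and CEACAM5 (10.5% of all), an NF-kappaB motif was in those of all but CEACAM6 (58.7% of all), and the FOXA letters TGTTTAC were in none (3.42% of all). Matches of different motifs did not overlap in the 5 windows, while NF-kappaB matches overlapped each other in LCN2 and CEACAM1. A match or its absence describes the letters of the window only.

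CEACAM6 had the highest level of the CEACAM members, at 5.46, 7.57 and 4.95 FPKM in CSC and 29.7, 30.1 and 26.1 FPKM in DMSO after 2 weeks. After 48 hours the gene had 17.6, 7.48 and 9.71 FPKM in CSC and 7.64 and 6.93 FPKM in DMSO. The CSC libraries therefore lay below DMSO at 2 weeks, while at 48 hours 2 of 3 lay above both DMSO libraries, replicate 1 furthest. The log2 difference between CSC and DMSO was -2.18 ± 0.24 (SE) at 2 weeks and 0.55 ± 0.27 at 48 hours, and the difference between the times in DMSO was 1.90 ± 0.27. The CSC mean of 6.0 ± 1.39 FPKM (SD, n = 3) at 2 weeks was 20.9% of the DMSO mean of 28.6 ± 2.21 FPKM (SD, n = 3).

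CEACAM5, the carcinoembryonic antigen, was scarcer, at 0.273, 0.332 and 0.251 FPKM in CSC and 1.63, 1.36 and 1.19 FPKM in DMSO after 2 weeks. At 48 hours this gene was at 0.295, 0.115 and 0.102 FPKM in CSC and 0.218 and 0.0760 FPKM in DMSO. Only the DMSO libraries of 2 weeks stood apart, and the CSC libraries of 2 weeks overlapped those of 48 hours. The CSC mean was 20.5% of the DMSO mean at 2 weeks, a log2 difference of -1.26 ± 0.22 (SE), and the difference between the times in DMSO was 1.55 ± 0.24. CEACAM1 was at 0.583, 1.19 and 0.635 FPKM in CSC and 0.977, 1.09 and 0.567 FPKM in DMSO after 2 weeks. After 48 hours it was at 0.710, 0.283 and 0.695 FPKM in CSC and 0.228 and 0.819 FPKM in DMSO. Its 4 groups overlapped, and the log2 difference with time in DMSO, 0.47 ± 0.32 (SE), was 0.04 without DMSO 48 hours replicate 2 and 0.90 without DMSO 48 hours replicate 3. The description of genes that rise with time in DMSO therefore did not hold for CEACAM1.

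SCNN1A, the sodium channel subunit (chromosome 12, positions 6456009 to 6486523), had 5.58, 7.14 and 5.63 FPKM in CSC and 9.16, 10.1 and 8.89 FPKM in DMSO after 2 weeks. At 48 hours it had 1.28, 0.778 and 1.67 FPKM in CSC and 1.20 and 1.87 FPKM in DMSO. The 2-week libraries lay above the 48-hour ones under both treatments, and the CSC libraries of 2 weeks lay between the other groups. The CSC mean of 6.12 ± 0.88 FPKM (SD, n = 3) was 65.1% of the DMSO mean of 9.4 ± 0.65 FPKM (SD, n = 3). The log2 difference was -0.59 ± 0.19 (SE) between CSC and DMSO at 2 weeks and 2.30 ± 0.21 between the times in DMSO.

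NTS (chromosome 12, positions 86268073 to 86276770) had 7.54, 8.20 and 5.66 FPKM in CSC and 29.96, 29.7 and 27.5 FPKM in DMSO after 2 weeks. At 48 hours NTS had 4.15, 1.59 and 1.41 FPKM in CSC and 3.53 and 3.18 FPKM in DMSO. Its DMSO libraries of 2 weeks agreed closely and stood far above the rest, with the CSC libraries of that time next and the 48-hour groups overlapping. The CSC mean of 7.13 ± 1.32 FPKM (SD, n = 3) was 24.6% of the DMSO mean of 29.0 ± 1.36 FPKM (SD, n = 3). The log2 difference was -1.97 ± 0.26 (SE) between CSC and DMSO at 2 weeks and 2.94 ± 0.29 between the times in DMSO.

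Set side by side, the members reached very unequal shares of their DMSO level after 2 weeks of CSC. LCN2 and CEACAM1 overlapped with DMSO, at 90.2% and 91.6% of its mean. SCNN1A and SLPI were at 65.1% and 53.6%, and NTS, CEACAM6 and CEACAM5 were at 24.6%, 20.9% and 20.5%. DEFB1 was nearly absent. Of the CSC libraries, replicate 2 had the highest level of every member at 2 weeks and is also the deepest library. The part of depth in this was not tested. Over the 8 members the median log2 difference between CSC and DMSO was -1.05 at 2 weeks and 0.07 at 48 hours, where the median of all tested genes was 0.09 and 0.00.

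**Figure D2:**
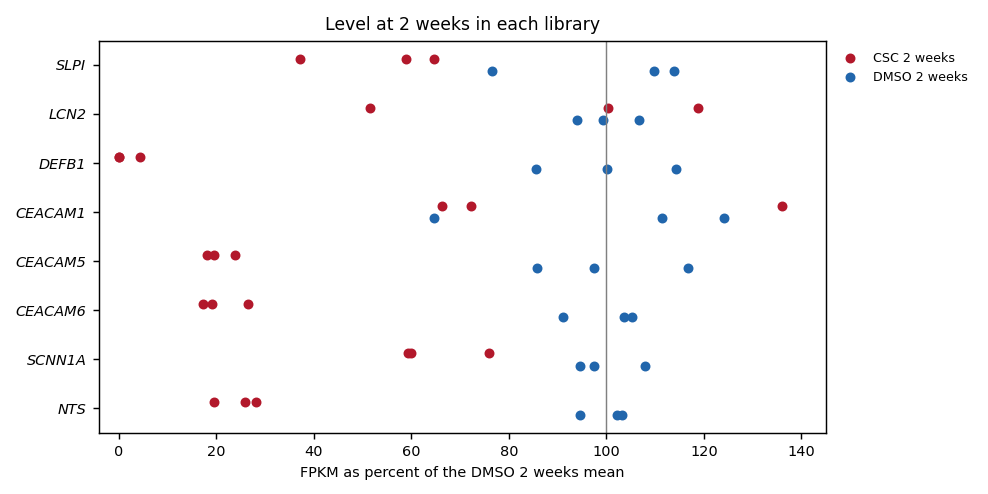
FPKM in each library of 2 weeks as a percent of the DMSO 2 weeks mean of that gene (horizontal axis), with CSC points above DMSO points in each row. CSC libraries of LCN2 lie between 51.5% and 119%, those of SCNN1A between 59.4% and 76.0%, and those of CEACAM5 between 18.1% and 23.9%.

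Whether the genes changed with time under CSC itself was tested, since the comparison of CSC at 2 weeks with CSC at 48 hours shares no library with the DMSO rise. The spread in this test was still estimated from all 11 libraries, and the members were chosen with earlier results of these data known. SCNN1A, SLPI, LCN2 and NTS rose, CEACAM6 fell, and DEFB1, CEACAM1 and CEACAM5 did not pass the test. The log2 changes of the rising genes were 1.95 ± 0.19 (SE) for SCNN1A, 2.09 ± 0.30 for SLPI, 1.83 ± 0.40 for LCN2 and 1.51 ± 0.26 for NTS. Adjusted p-values (limma, Benjamini-Hochberg over 12506 genes) were 2.69e-04 for SCNN1A, 0.00497 for SLPI, 0.0208 for LCN2 and 0.0124 for NTS. In each of these 4 genes all CSC libraries of 2 weeks lay above all CSC libraries of 48 hours, as did 28.4% of tested genes. Thus 4 of 8 members rose and 1 fell, against 12.3% and 1.38% of all tested genes. That background depended on scaling: 1536 genes were higher and 172 lower with FPKM as deposited, against 186 and 243 under median-of-ratios scaling, 85 and 455 with a common sum and 123 and 201 under quantile normalization. SLPI, SCNN1A and NTS kept their calls under all 3 scalings. The median change was 0.90 over the members and 0.19 over all tested genes.

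The call for CEACAM6 was fragile. Its log2 change of -0.83 ± 0.24 (SE) had an adjusted p of 0.0418 by limma, its groups overlapped, and the p ranged between 0.0259 and 0.130 over 22 other settings, of which 13 ended the call. Without CSC 48 hours replicate 1, its highest CSC library of that time, the change was -0.50 (adjusted p = 0.0829, limma). The 95% intervals of the changes that did not pass were -1.02 to 0.37 for DEFB1, -0.23 to 0.71 for CEACAM5 and -0.34 to 0.92 for CEACAM1. SLPI and SCNN1A kept their calls in all 22 settings, and NTS in all but a fit of the 6 CSC libraries alone (adjusted p = 0.0654, limma). LCN2 lost its call in 5 of 21 settings, with adjusted p-values by limma over all settings between 0.0137 and 0.0823.

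The vehicle rise was carried over under CSC to different degrees. As a share of the log2 difference with time in DMSO, the difference under CSC was 84.7% for SCNN1A, 68.2% for LCN2, 67.4% for SLPI, 62.2% for CEACAM1, 51.4% for NTS and 15.4% for CEACAM5. The shares of CEACAM1 and CEACAM5 rest on changes under CSC that did not pass the test. For CEACAM1 the DMSO difference itself, 0.47 ± 0.32 (SE), was 0.04 without DMSO 48 hours replicate 2, so its share has no clear rise beneath it. The change of CEACAM5 under CSC, 0.24 ± 0.22 (SE), was 0.37 without CSC 48 hours replicate 1 and -0.041 under quantile normalization. Shares of low genes also depend on the pseudocount. At 0.1 the members' median differences with time were 2.61 in DMSO and 1.13 under CSC, against 2.10 and 0.90. DEFB1 and CEACAM6 had differences of the opposite sign under CSC, but that of DEFB1 was 0.13 without CSC 48 hours replicate 3. The difference between the time changes, CSC minus DMSO, was negative for all 8 members, between -0.18 ± 0.43 (SE) for CEACAM1 and -2.73 ± 0.36 for CEACAM6. No test is given for these differences, because the DMSO part of each was used to choose the members.

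**Figure D3:**
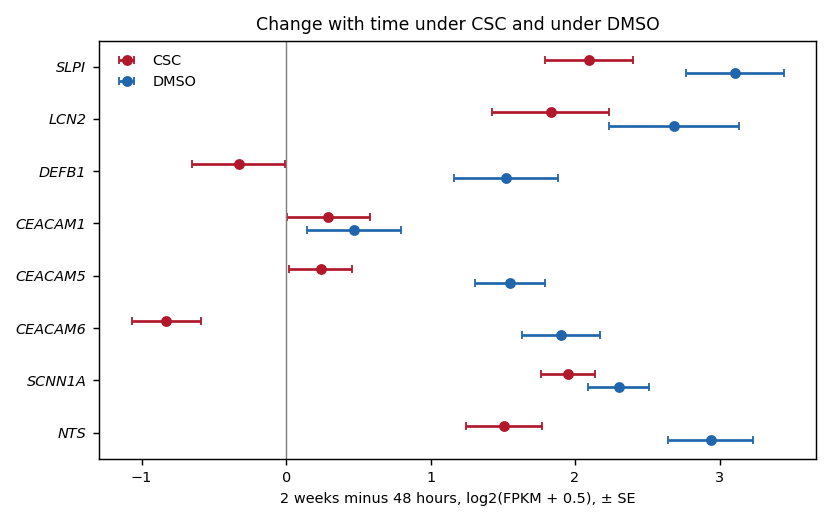
Log2 difference of FPKM + 0.5 between 2 weeks and 48 hours (horizontal axis, point ± SE from the fit of all 11 libraries) under CSC (upper point of each row) and DMSO (lower point). SLPI, LCN2, SCNN1A and NTS lie right of 0 under both, whereas CEACAM6, at -0.83 under CSC and 1.90 under DMSO, lies on opposite sides.

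The members also differed in how alike their profiles were over the 11 libraries, measured as the root mean square difference of log2(FPKM + 0.5) after each gene was centred on its own mean. Smallest among the 28 pairs was SLPI with SCNN1A, at 0.43, followed by LCN2 with SCNN1A at 0.46 and CEACAM5 with CEACAM6 at 0.48. CEACAM1 with CEACAM5 came next, at 0.60, while CEACAM1 with CEACAM6 stood at 0.84. LCN2 and DEFB1 were furthest apart, at 1.43. Of the tested genes outside the members, the 5 nearest to the members' mean profile were FOXS1 (0.27), TMEM47 (0.29), MYL9 (0.31), C1S (0.34) and HTRA3 (0.34). MYL9 is a myosin light chain of contractile cells, C1S a complement protease and HTRA3 a secreted serine protease. MYL9, for example, averaged 1.98 ± 0.17 FPKM in CSC and 5.0 ± 0.17 FPKM in DMSO at 2 weeks, and 1.27 ± 0.18 FPKM in CSC (SD, n = 3 each) and 1.38 ± 0.51 FPKM in DMSO (SD, n = 2) at 48 hours. These genes were picked for their likeness, so their differences are not tested here.

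**Figure D4:**
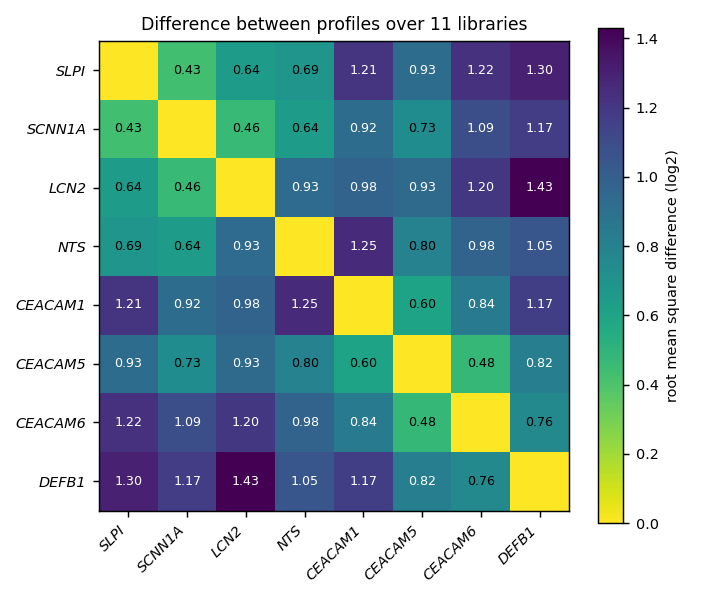
Root mean square difference in log2 units (colour and number) between the centred profiles of each pair of members over 11 libraries. SLPI, SCNN1A and LCN2 lie close together, as do CEACAM5 with CEACAM6 and CEACAM1 with CEACAM5 (0.60). DEFB1 is far from SLPI (1.30) and LCN2 (1.43).

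The nearest tested genes on either side of the members were 14 genes chosen by position. By limma 0 were called between CSC and DMSO at 2 weeks, against 5.41% of tested genes, and 0 with time in DMSO, against 0.768%. At an unadjusted p under 0.05 there were 6 between CSC and DMSO at 2 weeks, against 3075 of the 12506 tested genes. With time in DMSO there were 3, against 1601 of 12506. The neighbours named here were picked after their values were seen. SDC4, 70722 bases from SLPI, had a log2 difference of -0.29 ± 0.12 (SE) between CSC and DMSO at 2 weeks (adjusted p = 0.171, limma). TNFRSF1A, the first receptor for tumour necrosis factor, lies 4725 bases from SCNN1A and had -0.01 ± 0.13 (adjusted p = 0.964, limma). RPS19, a ribosomal protein gene 87874 bases from CEACAM6, had 0.62 ± 0.20 (adjusted p = 0.0828, limma), the opposite direction to CEACAM6. RASSF9, 37754 bases from NTS, had -0.62 ± 0.28 (adjusted p = 0.194, limma), the same direction as NTS. With time in DMSO, SDC4 had 0.38 ± 0.14, TNFRSF1A 0.43 ± 0.14 and RASSF9 0.72 ± 0.31, all rising as their members did. RPS19 had 0.13 ± 0.22, and PHLDB3, 946593 bases from CEACAM1, had -0.45 ± 0.21. Over the 14 neighbours the medians were 0.14 with time in DMSO and 0.08 between CSC and DMSO at 2 weeks. The part of position in these changes was not tested.

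Genes related to the members by function were taken from 7 lists, of which 46 of 122 genes in the files passed the filter. Of 39 other secreted defence genes, 33 stayed under an FPKM of 1 in every library and 13, among them LTF, PI3, SCGB1A1 and CAMP, were listed at 0 in all. Of the 5 that were tested, 0 were called by limma between CSC and DMSO at 2 weeks, against 5.41% of tested genes, and 0 with time in DMSO, against 0.768%. At an unadjusted p under 0.05 these counts were 0 and 3, against 3075 and 1601 of all 12506 tested genes. SERPINA3, a serpin of the acute phase, had a log2 difference of 1.76 ± 0.38 (SE) with time in DMSO that missed the threshold (adjusted p = 0.0601, limma). It rose with time under CSC by 1.34 ± 0.34 (adjusted p = 0.0305, limma), a call that 10 of 21 other settings ended. With time under CSC 4 of the 5 were called higher, against 12.3% of tested genes, and other settings ended the call of RNASE4 in 7 of 22 and that of CST3 in 8 of 22. RNASE4 and ANG overlap at 1 locus, so the split of reads between them is uncertain. Over all 7 lists, 1 gene was called higher and 3 lower between CSC and DMSO at 2 weeks, against 3.01% and 2.4% of tested genes. Over all genes these were 376 higher and 300 lower as deposited, against 289 and 460 under median-of-ratios scaling, 264 and 487 with a common sum and 325 and 441 under quantile normalization. With time, 2 rose in DMSO (0.656% of tested genes) and 16 rose under CSC (12.3% of tested genes), a count that fell to 5 under median-of-ratios scaling and to 4 with a common sum of FPKM or quantile normalization. The 1 gene higher at 2 weeks (GRHL3) and 2 of the 16 (GRHL3 and SCNN1B) were high enough for testing in CSC at 2 weeks alone, so these counts hold genes that the filter let in through the group tested as higher. Over all genes 82 were higher and 14 lower with time in DMSO as deposited, against 43 and 16 under median-of-ratios scaling, 32 and 14 with a common sum and 41 and 19 under quantile normalization. The median of the 46 genes was near 0 between CSC and DMSO at 2 weeks, 0.29 with time in DMSO and 0.42 with time under CSC, where those of all tested genes were 0.09, 0.09 and 0.19.

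Among genes of the sodium channel, the beta subunit SCNN1B, like SCNN1A, had its higher levels after 2 weeks. It had 1.06, 1.24 and 0.952 FPKM in CSC and 0.606, 0.437 and 0.50 FPKM in DMSO after 2 weeks, and 0.111, 0 and 0 FPKM in CSC and 0 and 0.161 FPKM in DMSO at 48 hours. The 2-week libraries lay above the 48-hour ones, and CSC lay above DMSO at 2 weeks, the reverse of SCNN1A. Its log2 difference with time under CSC was 1.56 ± 0.22 (SE), given with no test, because SCNN1B passed the filter through CSC at 2 weeks alone. Its log2 difference between CSC and DMSO at 2 weeks, 0.64 ± 0.22, is given with no test for the same reason. SGK1, a kinase that keeps the channel at the cell surface, had 3.97, 2.98 and 3.09 FPKM in CSC and 10.97, 10.8 and 10.2 FPKM in DMSO after 2 weeks. After 48 hours SGK1 had 3.56, 6.34 and 2.70 FPKM in CSC and 10.1 and 8.77 FPKM in DMSO. It was lower under CSC at 2 weeks by a log2 difference of -1.54 ± 0.22 (SE; adjusted p = 0.00143, limma), with no overlap at either time.

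Of 16 tested transcription regulators of epithelium and defence, NFKBIZ and HNF4A were lower between CSC and DMSO at 2 weeks, where 2.4% of tested genes were called lower. NFKBIZ, a nuclear cofactor of NF-kappaB, averaged 3.79 ± 0.41 FPKM in CSC and 7.52 ± 0.82 FPKM in DMSO (SD, n = 3 each), a log2 difference of -0.90 ± 0.15 (SE; adjusted p = 0.00569, limma). HNF4A, a nuclear receptor of liver and gut, averaged 11.8 ± 0.94 FPKM in CSC and 18.7 ± 1.42 FPKM in DMSO (SD, n = 3 each), a difference of -0.64 ± 0.13 (SE; adjusted p = 0.0151, limma). Both also lay lower under CSC at 48 hours, where they missed the threshold. The differences there were -0.68 ± 0.15 for HNF4A (SE; adjusted p = 0.0837, limma) and -0.49 ± 0.17 for NFKBIZ (adjusted p = 0.362, limma). HNF4A also rose with time, by 0.82 ± 0.15 in DMSO (adjusted p = 0.0261, limma) and by 0.85 ± 0.13 under CSC (adjusted p = 0.00714, limma). The call in DMSO was ended by 8 of 22 other settings, with a difference of 0.55 (adjusted p = 0.203, limma) without DMSO 48 hours replicate 2, while none of 22 ended that under CSC. GRHL3, a regulator of epidermal barrier genes, averaged 1.26 ± 0.10 FPKM in CSC and 0.233 ± 0.157 FPKM in DMSO (SD, n = 3 each), a difference of 1.28 ± 0.27 (SE), given with no test, because GRHL3 too passed the filter through CSC at 2 weeks alone. SGK1 and NFKBIZ kept these calls in all 22 other settings, while 3 of 22 ended that of HNF4A between treatments.

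Around neurotensin, the receptor gene NTSR1 reached at most 0.0295 FPKM in CSC at 2 weeks and was listed at 0 in the other groups. PCSK5, a proprotein convertase, rose with time in DMSO by 0.70 ± 0.14 (SE; adjusted p = 0.0396, limma), which 13 of 21 other settings ended, and under CSC by 0.70 ± 0.12 (adjusted p = 0.0128, limma). Its difference between CSC and DMSO at 2 weeks was -0.03 ± 0.12 (adjusted p = 0.889, limma). SORT1, a sorting receptor that binds neurotensin, had -0.32 ± 0.14 (adjusted p = 0.195, limma). Of the other CEACAM family genes, 1 of 9 was tested, CEACAM19, with a difference of -0.34 ± 0.11 between CSC and DMSO at 2 weeks (adjusted p = 0.0808, limma). Of the 6 tested partners and substrates of SLPI and LCN2, 0 were called by limma between CSC and DMSO at 2 weeks, against 5.41% of tested genes. At an unadjusted p under 0.05 there was 1, against 3075 of the 12506 tested genes. With time under CSC 3 rose, against 12.3% of tested genes: ANXA2, which binds SLPI at the cell surface, the protease gene CTSS and the LCN2 receptor gene SLC22A17. In these 3 genes, 7 of 22, 14 of 21 and 12 of 22 other settings ended the call.

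**Figure D5:**
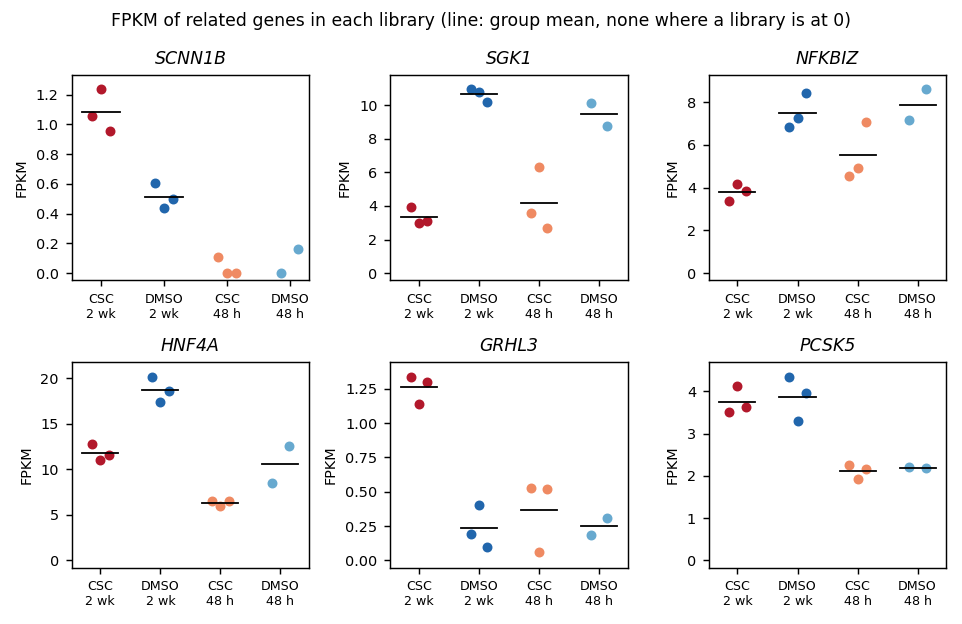
FPKM of 6 related genes (vertical axes, linear) in each library of the 4 groups, with a line at the group mean where no library was at 0. SGK1, NFKBIZ and HNF4A libraries of CSC lie below those of DMSO at 2 weeks, GRHL3 and SCNN1B libraries of CSC lie above them, and those of PCSK5 overlap.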

How the data were processed

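RNA of A549 cells was depleted of ribosomal RNA, sequenced on a HiSeq instrument and aligned to hg19, per the labels' protocols. TopHat2 version 2.0.9 and CASAVA version 1.7.1a5 are named in the submitters' processing notes. How FPKM was estimated, with which annotation and strand setting, is not given in the sources used here, nor are read totals. The authors deposited an FPKM with bounds for each of 25275 lines per library. Loci sharing 1 of 23609 symbols were summed, and 1 gene with a failed estimate in 2 libraries was left out.

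Tests used limma version 3.58.1 (lmFit, contrasts.fit, eBayes with trend) in R version 4.3.3 on deposited FPKM after log2(FPKM + 0.5). All 11 libraries entered 1 fit of 4 groups, over 12506 genes, and genes were called where the p adjusted by Benjamini-Hochberg was under 0.05. Fold changes on this scale understate the change of low genes. Intervals cover the spread between libraries. Libraries were grouped by title, and 0 pairs held identical values.

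The members, lists and tests were chosen with earlier results of these data known. Named genes are the members, the 5 genes nearest to their mean profile, and genes among the 4 per list with the smallest p between CSC and DMSO at 2 weeks or with time in DMSO. Outside that rule, list genes too low to test, such as NTSR1, LTF, PI3 and CAMP, are named for their level only. ANG is named for its overlap with RNASE4. The neighbours by position and the promoter motifs were added after the members' values were seen. The test was checked on simulated data with known answers, with changes placed only in genes of higher mean level than DEFB1, CEACAM1 and CEACAM5. That check therefore does not cover genes as low as these. Alternatives were the pseudocount, filter, scaling, trend, replicate block, locus choice, libraries fitted and each library left out. Alignments used Biopython version 1.88.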

Additional observations from a re-analysis of the deposited data

Results flagged for a closer look

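DEFB1 and CEACAM6 had changes with time of opposite sign under the 2 treatments. Each library of 2 weeks lay below the mean of the 48-hour libraries under CSC, and above it under DMSO. The change under CSC minus the change under DMSO was -1.85 for DEFB1 and -2.73 for CEACAM6 on the log2(FPKM + 0.5) scale. These differences were not tested, since the members were chosen for their change in DMSO. The change of DEFB1 under CSC, -0.33 ± 0.32 (SE), did not pass its test, and it was 0.13 without CSC 48 hours replicate 3, the 1 CSC library of that time not listed at 0. CSC libraries of DEFB1 were listed at 0 in 2 of 3 cases at each time.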

How the results depend on the processing

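Of the members, SLPI and SCNN1A kept their rise with time under CSC in every setting tried. With other settings the counts moved as follows, given as the count with the setting.

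Members that rose with time under CSC numbered 4, against 3 without a filter, at a filter of 5, under median-of-ratios scaling or with a common sum, and 2 in a fit of the libraries compared alone, which leaves fewer samples to estimate the spread. The 1 member that fell, CEACAM6, was lost (0) without a filter, under median-of-ratios scaling, quantile normalization or eBayes without trend, and in a fit of the libraries compared. Leaving out 1 library gave 3 to 4 higher and 0 to 1 lower. Related genes higher under CSC at 2 weeks numbered 1, against 0 at a pseudocount of 0.1 or a filter at an FPKM of 5, 2 without a filter, without trend or with the replicate block, and 4 with the libraries compared alone (0 to 4 with 1 library left out). Lower ones numbered 3, against 5 with a common sum or quantile normalization (2 to 4 with 1 library left out). With time in DMSO 2 rose, against 0 without a filter, with a common sum or quantile normalization, and 1 with a filter at 5, median-of-ratios scaling or the replicate block (0 to 3 with 1 library left out). With time under CSC 16 rose, against 7 without a filter, 5 under median-of-ratios scaling, 4 with a common sum or quantile normalization and 2 with the libraries compared alone (3 to 24 with 1 library left out). There 0 fell, against 1 without a filter, with a common sum or with the replicate block (0 to 1 with 1 library left out). Apart from the fits with fewer libraries or another number of genes tested, the cause was not tested. The median change of all genes with time under CSC was -0.09 with a common sum, against 0.19 as deposited, and calls of changes relative to 0 moved with it.

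The members' median with time in DMSO, 2.10, was 2.61 at a pseudocount of 0.1 and 2.62 at a filter of 5, which keeps 4 members. Under CSC the median of 0.90 was 1.73 at that filter and 0.73 to 1.51 with 1 library left out. Small differences changed sign. CEACAM5 with time under CSC was -0.041 under quantile normalization. With 1 library left out, DEFB1 with time under CSC ran between -0.56 and 0.13, positive without CSC 48 hours replicate 3. CEACAM1 ran between -0.34 and 0.52 for CSC against DMSO at 48 hours, and between -0.61 and 0.25 for the difference of the time changes. Without DMSO 48 hours replicate 2 these were -0.34 and 0.25.

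Pairing by replicate number was not uniform, so libraries were not treated as paired: 5 of 15 same-numbered pairs had a correlation of deviations over 0.1, between -0.20 and 0.31 in all. The 3 pairs of replicate 1 were all over 0.1, at 0.19, 0.22 and 0.31, and 7 of 11 libraries correlated best with their own number. With the replicate block 4 members rose and 1 fell under CSC, as without it.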
